A study of Mus musculus with 2 samples.

Results

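The hepatic transporters of bile acids and organic anions were examined in the liver of normal and diabetic mice, as the rows of the deposited expression table that carry the symbols Slco1a1, Slco1a4, Slco1b2, Slco2b1, Slc10a1, Abcb11, Abcb4, Abcc2, Abcc3 and Abcc4. Of these 10 genes, 7 had a row among the 8551 genes of the table, and Slc10a1, Slco2b1 and Abcb4 were not analysed here. The normal library came from the liver of male wild type C57BL/6 mice and its diabetic counterpart from male db/db mice, labelled type 2 diabetic on a C57BL/6 background, and both groups were 9 weeks old and killed about 3 h into the light phase. The db/db mice lack a working leptin receptor in the whole body, so obesity and diabetes cannot be told apart as sources of a difference, nor can the supplier of the mice, since they came from more than 1 and the groups' own are not stated. There was 1 library per group, the study does not state whether the RNA of several mice was pooled in it, and no difference below has a replicate check.

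Hepatocytes take bile acids and other organic anions from sinusoidal blood with carriers of the Slco (Oatp) and Slc10 families, and they push them into the bile canaliculus with ATP-driven pumps of the ABC families, so that uptake and canalicular export together drive the enterohepatic circulation. A further set of ABC pumps in the basolateral membrane returns organic anions to the blood and is known as an overflow route when bile flow is impaired. Several of the carriers differ between male and female mouse liver, Slco1a1 being known as a male-predominant and Slco1a4 as a female-predominant gene.

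The expression of each gene was read as tags from a site of the enzyme DpnII, which cuts at GATC. To show which piece of each transcript the assay can count, the 21 bases from the DpnII site nearest the 3' end were taken from the longest GENCODE transcript with a RefSeq entry, with the cut site in capitals. These are the tags that the reference predicts. The sequenced tags were not used here, and as the cDNA was primed with random hexamers, tags may also come from other DpnII sites of a transcript.
Slco1b2: GATCtagtatagtggatggta
Slco1a1: GATCaagctttctccccgcag
Slco1a4: GATCaacatggcaggagaaaa
Abcb11: GATCtgccagtgtggagcagg
Abcc2: GATCtgagactgttctttgag
Abcc3: GATCacagccagttcaaagcc
Abcc4: GATCtatttgaatatttagaa

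On GRCm38 the tag of Slco1a1 was at chr6:141909075-141909095 on the minus strand, in the coding part of exon 14 of 14. The other 6 tags lay in the 3' untranslated part of the last exon, that of Slco1a4 at chr6:141805888-141805908 (minus strand), that of Slco1b2 at chr6:141686519-141686539 (plus strand) and that of Abcb11 at chr2:69238428-69238448 (minus strand). The tag of Abcc2 was at chr19:43839133-43839153 (plus strand), that of Abcc3 at chr11:94343527-94343547 (minus strand) and that of Abcc4 at chr14:118482837-118482857 (minus strand). The Slco1a genes are close paralogs, so each tag was compared with the 676835 DpnII tags of all transcripts. No tag came closer than 3 mismatches to a tag of another gene. Tags from the other DpnII sites of the transporters were not compared in this way. The nearest tags to that of Slco1a1 were from its paralog Slco1a5 and from Gm5724, with 3 mismatches, whereas the tags of Slco1a1 and Slco1a4 differed at 10 positions at least. The study separates reads that map to unique genes from reads that map to multiple genes, and it describes unique genes as quantified. It does not state outright whether tags common to several genes were left out of the values.

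Values are tags per 1000000 clean tags of the library, which the authors call TPM, and they are not divided by gene length. As tags may come from several DpnII sites of a transcript, levels of different genes may depend on the number of sites. The reference transcripts have from 5 sites in Slco1a1 to 28 in Abcc2. Orders, sums and shares across genes below carry this limit. A single read is worth 0.0973 TPM in normal and 0.0740 TPM in diabetic liver, as the even spacing of the values shows, and the reads and the 10278531 and 13508232 clean tags were computed from it. Intervals are exact 95% intervals from these reads and cover counting error only, not the spread between mice. In this bulk tissue, fewer cells of a type and less RNA per cell cannot be told apart. The threshold was a fold of at least 1.5. The false discovery rate (FDR) came from an exact binomial test of the reads, two-sided, with Benjamini-Hochberg adjustment over all 8551 genes, and it compares the libraries and not the conditions. Over all genes the median log2 ratio of diabetic to normal was 0.25.

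Across the 7 transporters, Slco1a4 and Abcc4 were at least 1.5-fold higher in diabetic liver and Slco1a1 and Abcb11 at least 1.5-fold lower, all 4 with an FDR under 0.001. Slco1b2, Abcc2 and Abcc3 lay within 1.5-fold. Among all genes 34.4% were at least 1.5-fold higher and 15.3% at least 1.5-fold lower, 49.7% in either direction, and with the FDR added 22.9% were higher and 8.19% lower, 31% in either direction. Counts of 2 among 7 genes are too small to set against these shares and are not read as a result about the set. The table leaves out genes whose mean was under 1 TPM, a limit which Abcc4 passed by its diabetic value.

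**Figure D1:**
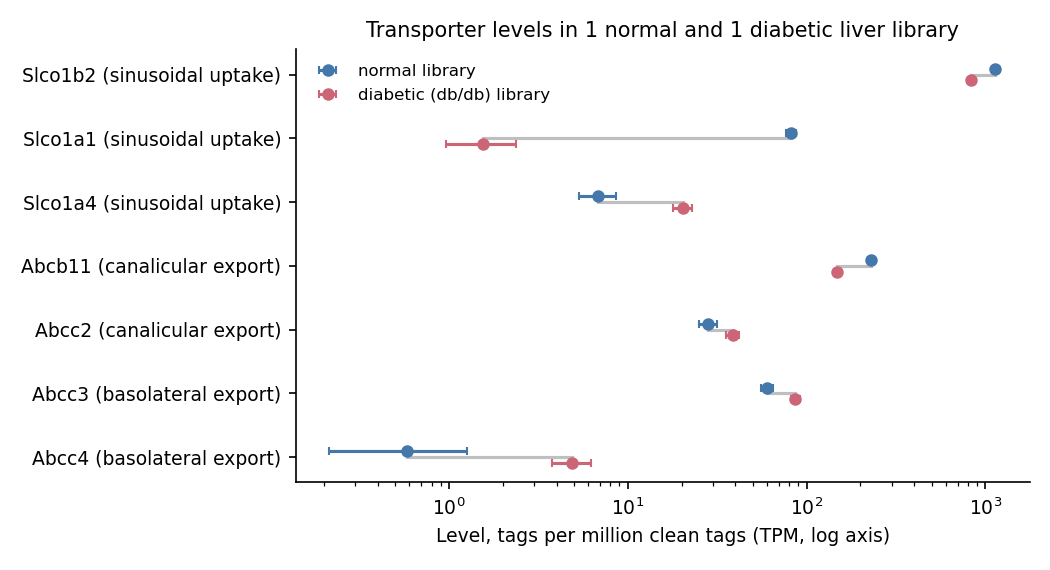
Level of each transporter in tags per 1000000 clean tags (TPM, log axis) in normal (blue) and diabetic db/db liver (red), with exact 95% intervals for counting error and 1 library per group. Slco1a1 moved from 81.8 to 1.55 TPM, while Slco1b2 was the most abundant transporter in both libraries.

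The sinusoidal uptake carriers went in different directions. Slco1b2 (Entrez 28253), which encodes the main sodium-independent carrier for bile acids and many drugs in mouse liver, was at 1132 TPM in normal liver and at 829 TPM in diabetic liver, from 11637 and 11193 reads. It was the 41st most abundant of all genes in normal liver and the 76th in diabetic liver. The diabetic level was 1.37-fold lower (95% interval, 1.33 to 1.40), a log2 ratio of -0.45, and thus under the threshold in the deposited values. When the libraries were put on a common scale by any of 4 methods that bring the typical gene near to equal, Slco1b2 was 1.63-fold to 1.69-fold lower and passed the threshold, so its call depends on the scaling. Among all genes, 23.7% were then higher and 23.9% lower after scaling to the sum of the listed genes, 24% and 23.6% with the trimmed mean of M values (TMM), 21.9% and 25.6% with the median ratio, and 23.4% and 24.3% with the upper quartile.

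Slco1a1 (Entrez 28248), a carrier of sulfated steroids, bile acids and other organic anions, was at 81.8 TPM in normal liver and at 1.55 TPM in diabetic liver. These values rest on 841 and 21 reads, and the diabetic level was still above the 0.222 TPM that 3 reads would give. The 52.8-fold lower level had an interval of 34.2 to 85.5. It had the 5th lowest ratio of the 8551 genes and went from the 681st to the 7750th place in abundance.

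Slco1a4 (Entrez 28250), which carries bile acids, steroid conjugates and cardiac glycosides, moved the opposite way. It was at 6.81 TPM in normal liver and at 20.3 TPM in diabetic liver, with 70 and 274 reads. The level was 2.98-fold higher in diabetic liver (95% interval, 2.28 to 3.93, FDR 5.4e-18 in the exact test). In normal liver Slco1a1 had 12.0 reads for each read of Slco1a4, and in diabetic liver Slco1a4 had 13.0 reads for each read of Slco1a1. This ratio within a library, which no scaling between libraries can alter, shifted 155-fold (exact conditional 95% interval, 92.6 to 272).

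Genes that differ between male and female liver moved beside this pair. Of 11 listed genes (of 19 looked up) that are known to be higher in males, with Slco1a1 not among them, 10 were at least 1.5-fold lower and 1 at least 1.5-fold higher in diabetic liver, and of 16 listed genes (of 19) known to be higher in females 16 were at least 1.5-fold higher, beside 34.4% higher and 15.3% lower among all genes. Their median log2 ratios were -2.56 and 5.11, the second with the 8 female-biased genes at 0 reads in normal liver set to 3 reads. As the table leaves out genes with a mean under 1 TPM, these 8 are in it only through their diabetic values. They could not have been lower, so the count of 16 cannot be set fairly against the shares among all genes. The lists were also written with earlier results of these data known. The part of this pattern in the values of Slco1a1 and Slco1a4 was not tested.

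Together the 3 uptake carriers were at 1221 TPM in normal liver and at 850.4 TPM in diabetic liver, 1.44-fold lower, a log2 ratio of -0.52 (95% interval, -0.56 to -0.48). Most of these reads belonged to Slco1b2 in either library, 92.7% in the normal (Wilson 95% interval, 92.3% to 93.2%) and 97.4% in the diabetic (97.1% to 97.7%). The share of Slco1a1 was 6.70% in normal liver and 0.183% in diabetic liver. The share of Slco1a4 was 0.558% and 2.39% in the same order, and in level Slco1a1 fell by 80.27 TPM while Slco1a4 was 13.5 TPM higher.

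The 3 Slco genes lie in 1 cluster on chromosome 6, in which RefSeq (GRCm38.p6) places Slco1a4 between Slco1b2 and Slco1a1. As neighbouring paralogs with such different ratios, they are shown with the 250 bases before their annotated start, 5' to 3' on the strand of the gene, with matches to 4 motifs in capitals. The motifs, searched on both strands, were the nuclear receptor half-site AGGTCA, the TATA box TATAAA, the STAT-type palindrome TTCNNNGAA and the antioxidant response core TGACNNNGC.
Slco1b2: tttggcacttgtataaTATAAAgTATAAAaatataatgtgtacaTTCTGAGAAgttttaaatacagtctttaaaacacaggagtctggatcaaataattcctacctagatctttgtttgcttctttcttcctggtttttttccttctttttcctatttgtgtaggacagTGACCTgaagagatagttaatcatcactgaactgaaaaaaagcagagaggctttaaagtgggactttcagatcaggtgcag
Slco1a4: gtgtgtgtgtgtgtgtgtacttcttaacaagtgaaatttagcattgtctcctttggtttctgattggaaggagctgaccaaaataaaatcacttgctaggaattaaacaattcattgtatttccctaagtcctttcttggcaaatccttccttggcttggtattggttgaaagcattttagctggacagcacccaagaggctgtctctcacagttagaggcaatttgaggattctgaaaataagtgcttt
Slco1a1: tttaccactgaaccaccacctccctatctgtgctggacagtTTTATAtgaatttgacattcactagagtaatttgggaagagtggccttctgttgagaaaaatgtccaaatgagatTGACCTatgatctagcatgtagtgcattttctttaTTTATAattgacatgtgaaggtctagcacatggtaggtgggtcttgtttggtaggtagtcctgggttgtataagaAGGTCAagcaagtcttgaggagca

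The sequences come from RefSeq (GRCm38.p6) and cover chr6:141629268-141629517 on the plus strand for Slco1b2, chr6:141856221-141856470 on the minus strand for Slco1a4 and chr6:141946963-141947212 on the minus strand for Slco1a1. The promoter of Slco1a1 held AGGTCA at 134 and 24 bases before the start, and TATAAA at 209 and 99 bases before it. That of Slco1b2 held TATAAA at 234 and 227 bases, TTCNNNGAA at 206 bases and AGGTCA at 81 bases before the start. None of the 4 motifs matched in the window of Slco1a4, and no matches overlapped each other. AGGTCA was present in 14.0% of all 32851 promoter windows of this length, TATAAA in 12.4%, TTCNNNGAA in 7.02% and TGACNNNGC in 10.2%. A match describes the letters of the window and is not evidence of a bound site.

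Of the canalicular pumps, Abcb11 (Entrez 27413), the bile salt export pump that sets the rate of bile acid secretion, was at 230.5 TPM in normal liver and at 148 TPM in diabetic liver. With 2369 and 2004 reads it was 1.55-fold lower in diabetic liver (95% interval, 1.46 to 1.65), an interval that includes the threshold of 1.5. Under the 4 scalings it was 1.85-fold to 1.92-fold lower. Abcc2 (Entrez 12780), the pump for bilirubin glucuronides and glutathione conjugates, had 28.1 TPM in normal and 38.6 TPM in diabetic liver, from 289 and 521 reads. It was 1.37-fold higher in diabetic liver (95% interval, 1.19 to 1.59), which under the 4 scalings shrank to 1.11-fold to 1.15-fold. Thus the 2 pumps of the same membrane differed in their ratios. Abcb11 had 8.20 reads for each read of Abcc2 in normal liver and 3.85 in diabetic liver, a 2.13-fold shift (exact conditional 95% interval, 1.82 to 2.50).

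Of the basolateral pumps, Abcc3 (Entrez 76408), which exports glucuronides and bile acids to the blood, was at 60.2 TPM in normal liver and at 86.6 TPM in diabetic liver. With 619 and 1170 reads it was 1.44-fold higher (95% interval, 1.30 to 1.59), and under the 4 scalings 1.16-fold to 1.21-fold. Abcc4 (Entrez 239273), which exports bile acids together with glutathione and also cyclic nucleotides, was the least abundant transporter in normal liver at 0.58 TPM or 6 reads. It was at 4.89 TPM or 66 reads in diabetic liver, where it stood above Slco1a1. However, the reference transcript of Slco1a1 has 5 DpnII sites and that of Abcc4 has 24. The 8.43-fold higher level had a wide interval of 3.65 to 23.6 because of the few normal reads, and it was the 92nd highest ratio of the 8551 genes. Abcc2 and Abcc3 kept nearly the same proportion to each other, with 2.14 reads of Abcc3 for each read of Abcc2 in normal liver and 2.25 in diabetic liver (1.05-fold shift, exact conditional 95% interval 0.878 to 1.25). Abcc3 had 103 reads for each read of Abcc4 in normal liver and 17.7 in diabetic liver, a 5.82-fold shift (2.51 to 16.5). These 4 pairs were the ones compared.

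**Figure D2:**
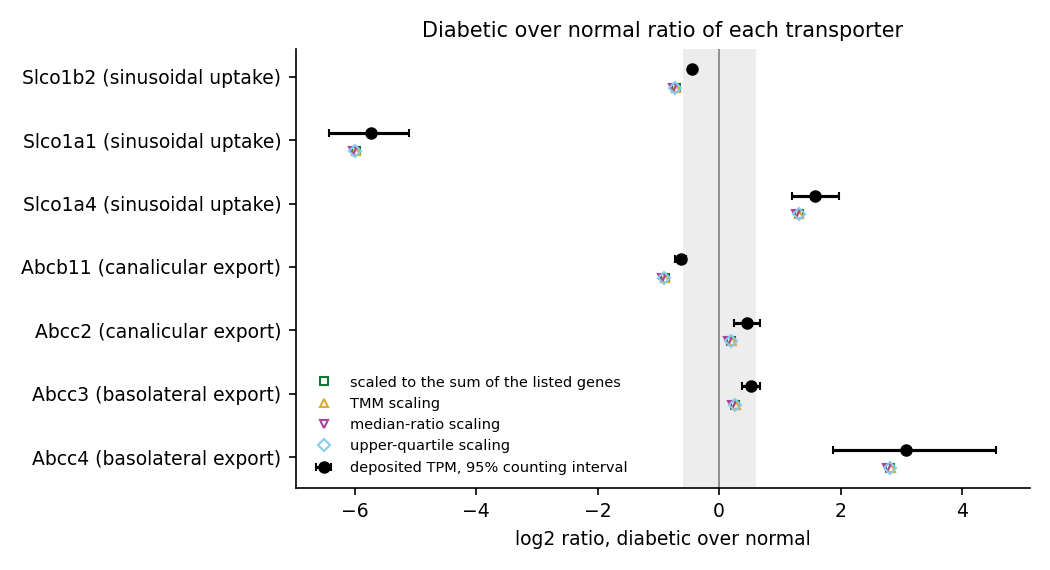
The log2 ratio of diabetic to normal for each transporter, with exact 95% counting intervals for the deposited TPM (black) and the ratio under 4 scalings between the libraries (open symbols), and the range within 1.5-fold in grey. The scalings move every point to the left by 0.25 to 0.31, which takes Slco1b2 out of the grey range and leaves Abcc2 and Abcc3 within it.

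Summed over the 4 exporters, the levels were closer, 319 TPM in normal liver and 278 TPM in diabetic liver, 1.15-fold lower (log2 ratio -0.20, 95% interval -0.27 to -0.13). The 4 scalings lower this log2 ratio by 0.25 to 0.31 too, which leaves the sum within 1.5-fold. The make-up of the sum, which no scaling between libraries can alter, also differed. Abcb11 held 72.2% of the exporter reads in normal liver (Wilson 95% interval, 70.6% to 73.7%) and 53.3% in diabetic liver (51.7% to 54.9%). The share of Abcc3 was 18.9% in normal liver and 31.1% in diabetic liver, and the share of Abcc2 was 8.80% and 13.9%. Abcc4 held 0.183% and 1.75% of the exporter reads.

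**Figure D3:**
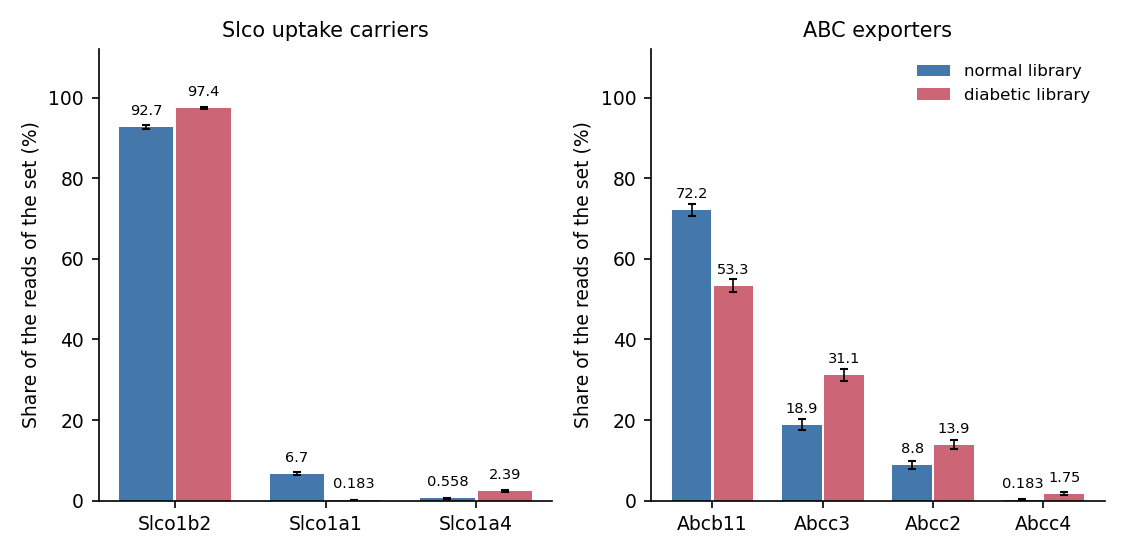
Share of the reads of the 3 Slco uptake carriers (left) and of the 4 ABC exporters (right) that each gene held in normal liver (blue) and diabetic liver (red), in percent with Wilson 95% intervals for counting error. Abcb11 went from 72.2% to 53.3% of the exporter reads and Abcc3 from 18.9% to 31.1%.

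The order of the levels was Slco1b2, Abcb11, Slco1a1, Abcc3, Abcc2, Slco1a4 and Abcc4 in normal liver. In diabetic liver it was Slco1b2, Abcb11, Abcc3, Abcc2, Slco1a4, Abcc4 and Slco1a1. The counting intervals of neighbours in either order did not overlap, but the spread between mice is unknown. Either order may also depend on the number of DpnII sites of each transcript. Apart from Slco1a1, which went from the third to the last place, the other 6 transporters stood in the same order in both libraries.

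To place the transporters among related genes, 5 lists of other carriers, pumps, receptors, scaffolds and genes of their families were looked up, with 53 listed genes of 74. Of these, 15 were at least 1.5-fold higher and 8 at least 1.5-fold lower in diabetic liver, next to 34.4% higher and 15.3% lower among all genes. With an FDR under 0.001 as well, 13 were higher and 5 lower, next to 22.9% and 8.19% of all genes. The median log2 ratio of the 53 genes was 0.23, near the 0.25 of all genes. Under the 4 scalings 11 to 12 of them were higher and 12 lower, next to 21.9% to 24% higher and 23.6% to 25.6% lower among all genes.

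Of 6 other listed genes looked up for uptake 1 was higher and 1 lower, next to 34.4% higher and 15.3% lower among all genes. Slc22a5, the carnitine transporter, was at 2.24 TPM in normal liver and at 16.7 TPM in diabetic liver, 7.47-fold higher (95% interval of the log2 ratio, 2.28 to 3.59). Slco2a1, the prostaglandin carrier, had 38.1 TPM in normal and 21.1 TPM in diabetic liver, 1.81-fold lower. The bile acid CoA ligase gene Slc27a5 was among the 4 that lay within 1.5-fold, with a log2 ratio of -0.14.

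The other canalicular proteins had 4 genes higher and 2 lower of 7, next to 34.4% higher and 15.3% lower among all genes. Under each of the 4 scalings 3 were higher and 3 lower, next to 21.9% to 24% higher and 23.6% to 25.6% lower among all genes. Abcg2, a pump for sulfated steroids and drugs, was at 22.6 TPM in normal liver and at 64.7 TPM in diabetic liver, 2.87-fold higher. Slc47a1, the exporter of organic cations, was 3.60-fold higher, from 12.7 to 45.5 TPM. The cholesterol pump genes Abcg5 and Abcg8, whose products work as a pair, were 1.95-fold and 1.51-fold higher, with Abcg8 no longer past the threshold in any of the 4 scalings. Aqp8, a water channel of the canaliculus, was at 177 TPM in normal liver and at 62.0 TPM in diabetic liver, 2.86-fold lower. Atp8b1, the phospholipid flippase that protects the canalicular membrane, was at 6.62 and 4.29 TPM, but with 68 and 58 reads its FDR in the exact test was 0.036. Of 4 listed genes looked up for the basolateral side 1 was higher and 1 lower, next to 34.4% and 15.3% among all genes. Under each of the 4 scalings 0 were higher and 2 lower, next to 21.9% to 24% and 23.6% to 25.6% among all genes. Whether each of their proteins lies in that membrane of hepatocytes was not checked. Abcc9 was 2.96-fold lower from 43 and 19 reads, and Slc51b, listed as Ostb, had a log2 ratio of 0.64 with an interval of -0.18 to 1.52.

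**Figure D4:**
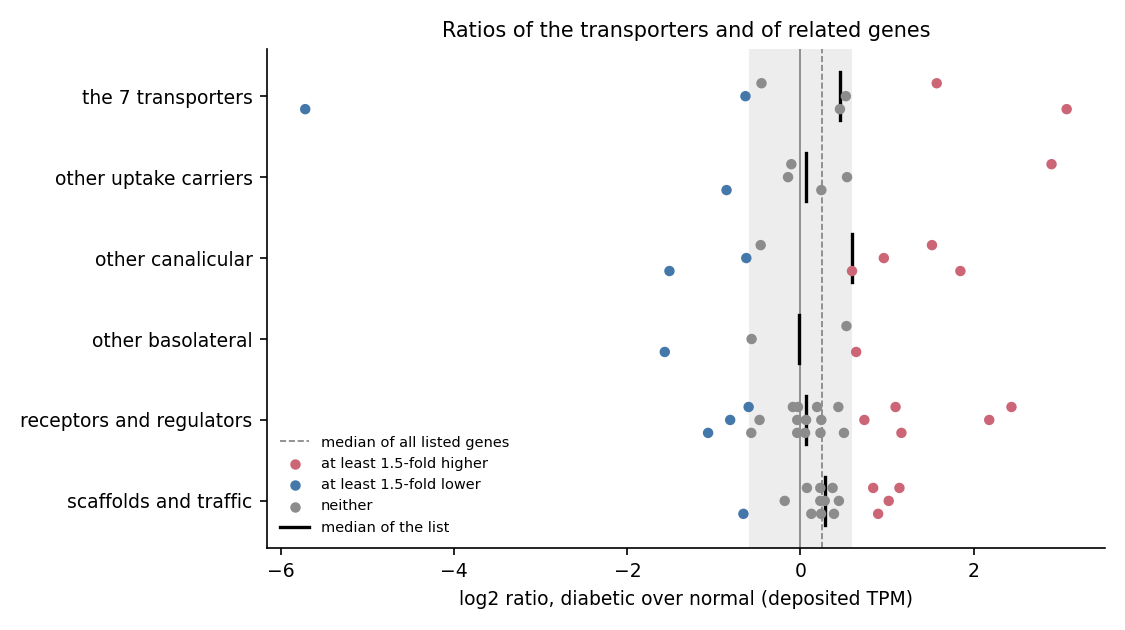
The log2 ratio of diabetic to normal (deposited TPM) of the 7 transporters and of the genes of 5 related lists, 1 point per gene, red for at least 1.5-fold higher, blue for at least 1.5-fold lower and grey for neither, with the median of each list as a black bar. The dashed line is the median of all listed genes at 0.25, and Slco1a1 lies furthest from the rest at -5.72.

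Of 21 receptors and regulators of transporter genes, 5 were higher and 3 lower, next to 34.4% higher and 15.3% lower among all genes. Under each of the 4 scalings 4 were higher and 5 lower, next to 21.9% to 24% higher and 23.6% to 25.6% lower among all genes. Nr1i3 (CAR), the xenobiotic receptor, was at 32.5 TPM in normal liver and at 176 TPM in diabetic liver, 5.42-fold higher. Nfe2l2 (NRF2), the transcription factor of the antioxidant response, was at 33.4 and 151 TPM, 4.53-fold higher, and its inhibitor Keap1 was at 14.0 and 9.25 TPM, with an FDR of 0.0018 in the exact test. Ppara, the receptor for fatty acids, was 2.24-fold higher. Nr1h4 (FXR), the bile acid receptor, was at 56.1 TPM in normal liver and at 93.7 TPM in diabetic liver, 1.67-fold higher, a difference that did not pass the threshold in any of the 4 scalings. Nr0b2 (SHP), a target gene of FXR that represses bile acid genes, was at 60.6 and 43.7 TPM, a log2 ratio of -0.47 that was within 1.5-fold in the deposited values and beyond it under each of the 4 scalings. Hnf4a, a main hepatocyte factor, was 2.10-fold lower, from 96.8 to 46.2 TPM, and Foxa3 was 1.76-fold lower. The other xenobiotic receptor, Nr1i2 (PXR), had a log2 ratio of 0.44 (95% interval, 0.13 to 0.75).

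Among 15 genes for scaffolds and vesicle traffic, 4 were higher and 1 lower, next to 34.4% higher and 15.3% lower among all genes. Slc9a3r1 and Rdx, which encode a PDZ scaffold and the radixin that tie canalicular pumps to actin, were 1.86-fold and 1.79-fold higher, and Rdx lay within 1.5-fold under 3 of the 4 scalings. Vipar, listed as AI413782 and needed for apical sorting, was 2.21-fold higher from 53 and 154 reads. Myo5b and Vps33b passed the fold only, with FDRs of 0.037 and 0.084 in the exact test. Pdzk1, another PDZ scaffold, was at 16.6 and 21.8 TPM and thus within 1.5-fold.

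Both libraries carried hepatocyte markers at high levels, with 9 of 10 listed, 3 higher, 3 lower, none at 0 reads and a sum of 14904 TPM in the normal and 14025 TPM in diabetic liver. These sums rest mainly on Alb, at 6801 and 6912 TPM, and Tf, listed as Trf, at 3333 and 3331 TPM. They do not show that the other markers were steady. Cholangiocytes also express Abcc3, and 3 of 8 of their markers were listed, summing to 61.5 and 107 TPM. These sums were mostly Spp1 with 57.2 and 103 TPM. It was higher, but within 1.5-fold under the median ratio and the upper quartile. Epcam was at 3.21 and 3.04 TPM and Krt7 at 1.07 and 1.18 TPM. Macrophage markers, 5 of 8 listed, summed to 101 and 82.0 TPM, of which Cd5l made up 64.7 and 62.9 TPM, and 2 of the 5 were lower and 0 higher. These were Csf1r, 2.14-fold lower, and Adgre1, listed as Emr1, 2.05-fold lower. Endothelial markers, 8 of 8 listed, summed to 119 and 106 TPM with 2 higher and 1 lower, and stellate cell markers, 7 of 8, to 117 and 159 TPM with 2 higher and 1 lower. In these lists too, the shares among all genes were 34.4% higher and 15.3% lower. Under each of the 4 scalings, 2 hepatocyte markers were higher and 3 lower. Macrophage markers then had 0 higher and 3 lower, and stellate cell markers 1 and 1. Endothelial markers had 2 higher and 2 lower, but 0 higher under the median ratio. Among all genes 21.9% to 24% were then higher and 23.6% to 25.6% lower. Of 5 erythroid markers 1 was listed, Alas2, at 51.9 and 44.2 TPM. The part of these cells in the ratios of Abcc3 and Abcc4 was not tested.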

How the data were processed

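Liver poly(A) RNA of 1 normal and 1 diabetic library was cut with DpnII as cDNA and sequenced as tags on an Illumina 1G sequencer, and the authors compared clean tags with RefSeq. The submitters' processing notes name mm9, and the aligner is not given in the sources used here. The deposited values, called TPM by the authors, are RPM values, that is tags of a gene per 1000000 clean tags, rounded to 2 decimals with 0.01 in place of 0 and without genes whose mean was under 1. No column was left unused.

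Reads were computed from the value steps. Within 0.0051 TPM, 8512 of 8513 normal and 8536 of 8537 diabetic values above 0.01 were whole reads. By the exact binomial test 2655 genes passed both criteria. Groups follow the genotype labels. A gene with 3 reads or fewer in a library was set to 3 reads there. The 4 scalings used the sum over listed genes, the trimmed mean of M values (TMM, trims of 30% and 5%), the median ratio (genes averaging 10 TPM or more) and the 75th percentile. The transporters and lists were chosen with earlier results of these data known. Named are all transporters, list genes past both criteria and some fixed regulators (Nr1h4, Nr0b2, Nr1i2, Nr1i3, Pdzk1 and Atp8b1); Slc27a5, Keap1, Slc51b, Myo5b and Vps33b were added after their values were seen, and of marker genes at most the 3 most abundant of a list. A list gene that passed both criteria is not reported here by name. The computation was tested on simulated data. Scripts ran under Python 3.11.15 with scipy 1.17.1 and numpy 2.4.6, tables were handled with pandas 2.3.3, and figures were drawn with matplotlib 3.10.9.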

Additional observations from a re-analysis of the deposited data

How the results depend on the processing

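The log2 ratios of the 7 transporters kept their sign under each of the 4 scalings, both pseudocounts and, for the 6 transporters it leaves, a mean of at least 5 TPM. Slco1b2 crossed the 1.5-fold threshold under the 4 scalings, where 3 of the 7 transporters were lower and 2 higher, as each scaling lowers every log2 ratio by 0.25 to 0.31. A mean of at least 5 TPM removes Abcc4 and leaves 1 transporter higher. A fold of at least 2 leaves 1 transporter lower, Slco1a1. Of the genes of the 5 lists, 9 were higher and 3 lower at a fold of at least 2, where 18.6% and 6.81% of all genes were, against 15 and 8. With a pseudocount of 1 TPM 5 were lower, and 5 with the FDR added, where 8.19% of all genes were. Under the scalings these lists split into 11 to 12 higher and 12 lower, next to 21.9% to 24% higher and 23.6% to 25.6% lower among all genes. A pseudocount of 1 TPM brought the log2 ratio of Slco1a1 to -5.02 and that of Abcc4 to 1.90. Abcc4 with 6 normal reads and Slco1a1 with 21 diabetic reads are the least precise values. No paired analysis was possible because each group has 1 library.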
